A study of Mus musculus with 59 samples.

Results

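The genes described here encode the nuclear subunits of complex I (NADH:ubiquinone oxidoreductase), the entry point of electrons from NADH into the respiratory chain of mitochondria. The complex takes electrons from NADH in its N module, passes them to ubiquinone in its Q module and pumps protons through a membrane arm with a proximal and a distal part. The core subunits of the N and Q modules hold or adjoin the redox centres and are encoded in the nucleus, the core subunits of the membrane arm are encoded by the mt-Nd genes of the mitochondrial genome, and the remaining subunits are accessory and nuclear. In brown adipose tissue (BAT), which is rich in mitochondria, the proton gradient built by the respiratory chain is dissipated as heat by the uncoupling protein Ucp1.

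The members were the gene symbols of the count tables that begin with Nduf, one of the letters a, b, c, s or v and a number, together with Ndufab1, without symbols of pseudogenes ending in -ps and with a mean raw count of 10 or more. This gave 41 genes out of 55341 listed, and 41 of them passed the count minimum. They include 36 genes held to encode subunits, of which 7 are core subunits. The rule also took in Ndufa4 and Ndufa4l2, which are no longer held to encode subunits of complex I, and 3 processed pseudogenes, intronless copies of a parent gene. Ndufa11b is 94.8% identical over its length to a transcript of Ndufa11, Ndufs6b is 96.6% identical to Ndufs6 and Ndufb4c is 100% identical to Ndufb4. Reads of these pairs may have been divided between copy and parent, and their counts are uncertain. The same holds for Ndufab1, since the processed pseudogene Ndufab1-ps, which is no member, is 99.4% identical to it. Ndufab1-ps had a mean of 377.64 raw counts. Another symbol left out by its ending, Ndufb1-ps, had a mean of 2026.02 raw counts. Counts of Ndufa13, Ndufb5, Ndufb6, Ndufs1 and Ndufab1 are uncertain as well, because their exons share between 257 and 616 bases with another gene. The strand setting of the counting is not given in the sources used here. Exons of Ndufb2, Ndufb8 and Ndufb9 share 145, 134 and 201 bases with a gene on the same strand. Counts of these 3 are uncertain whatever the strand setting. Ndufb2 and other members also share bases with genes on the opposite strand. In a bulk tissue, fewer cells of a type and less RNA per cell cannot be told apart.

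RNA sequencing had been performed on the BAT of 59 male C57BL/6J mice, 8 to 12 weeks old, in 3 experiments. In the thyroid hormone (TH) experiment, wild-type (WT) mice received propyl-thio-uracil (PTU), an inhibitor of thyroid hormone synthesis, and were taken without hormone or 3, 6, 12 or 24 h after a single injection of T3 and T4, with 4 mice in each of these 5 groups. In the same experiment, 5 BATKO mice on PTU alone were compared with 5 BATKO mice on PTU taken 24 h after TH. In the temperature experiment, 4 control (CTRL) and 5 BATKO mice were kept at 30 °C, and 3 CTRL and 4 BATKO mice at 4 °C, for 24 h as the name of the count table gives it. In the diet experiment, 4 CTRL and 2 BATKO mice were fed chow, and 4 CTRL and 3 BATKO mice a high-fat diet (HFD), for 3.5 days by the table's name. What was changed in the genome of BATKO mice is not given in the sources used here, and they are called by this name only. Mice of one genotype carry separate numbers within an experiment, and p-values measure the spread between these mice.

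Several libraries stood apart from the others. The 10 BATKO libraries of the TH experiment had 249 genes with a mean above 100 counts whose mean was under 3 in the 20 WT libraries, of which 218 are annotated as pseudogenes, and 0 genes the other way round. In these 10 libraries 10 unprocessed pseudogenes took 24.0 to 35.9% of the counts outside the mitochondrial genome, against 0.0604 to 0.126% in WT mice. Ndufb4c had 862 to 1194 counts in the 10 libraries and at most 1 count in the other 49. For this reason levels of WT and BATKO mice were not compared in the TH experiment, only their responses, and Ndufb4c, which passed the count minimum only where these libraries were in the fit, was tested there alone, with at most 1 count in each WT mouse behind its WT response. In the temperature experiment, the libraries of CTRL mouse 1 and BATKO mouse 11 at 4 °C and of BATKO mouse 14 at 30 °C had 129 to 226 counts of the pseudogene Gm13340, against 4007 to 7799 in the other 13, while all 13 diet libraries had 110 to 223. In these 3 libraries, 6 members lay below all the other mice of their groups and 4 above them, and 30 did neither throughout. Total counts were between 7612059 and 18073627 per mouse, of which 39.2 to 55.7% came from the mitochondrial genome, and members were scaled without the latter, as CPM (counts scaled to a library of fixed size). The members together took 0.76 to 2.427% of the counts outside the mitochondrial genome. The defining markers Ucp1, Cidea and Adipoq were detected in every mouse, while the summed CPM of 10 markers of skeletal muscle varied between mice of a group, from 1.58 to 9934.8 in CTRL mice at 30 °C for example.

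Levels of the 40 members other than Ndufb4c spanned a wide range. In PTU-fed WT mice, Ndufa4 had the highest level per length, 1612.4 ± 248 CPM per kb of exons (SD, n = 4), the median member had 186 CPM per kb, and Ndufb2, a small subunit of the distal membrane arm, had the lowest with 3.32 ± 0.835 CPM per kb. The same genes stood first and last in CTRL mice at 30 °C, with 1656.0 ± 366 (n = 4) and 2.8 ± 0.392 CPM per kb, and in CTRL mice on chow, with 2262.2 ± 300 (n = 4) and 4.38 ± 0.84 CPM per kb. Ndufb2 stayed last by its longest transcript of 4371 bases, rather than all its exons of 5628 bases. Both lengths are long beside those of most members, and its place rests on them. By CPM alone, Ndufa4l2 was lower than Ndufb2 in WT mice on PTU (6.37 to 12.8 against 14.4 to 23.2 CPM). It was also lower in CTRL mice on chow (5.36 to 8.76 against 17.9 to 28.9 CPM). In CTRL mice at 30 °C the 2 genes overlapped (15.0 to 19.0 and 13.3 to 18.6 CPM). Most neighbours in the order could not be told apart, since the ranges of the mice overlapped in 29 of 39 neighbouring pairs in the WT mice on PTU, 31 in the CTRL mice at 30 °C and 34 in the CTRL mice on chow.

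**Figure D1:**
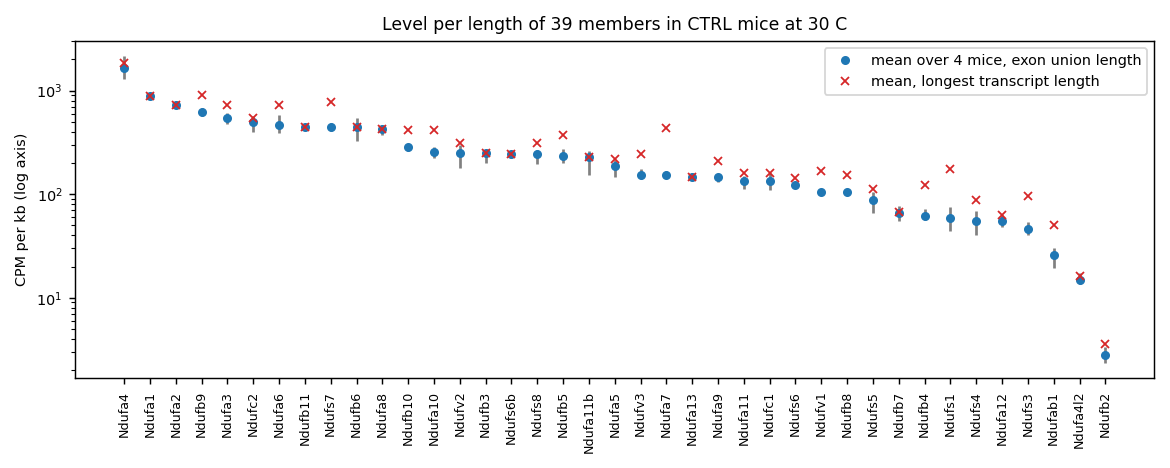
Levels per length of 39 members in CTRL mice at 30 °C, in CPM per kb of exons on a log axis, ordered from the highest to the lowest. Circles are means over 4 mice by the length of all exons, lines the lowest to the highest mouse and crosses means by the longest transcript, and the levels run from 1656.0 for Ndufa4 to 2.8 CPM per kb for Ndufb2.

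Promoters of the members were searched for the letters of factors known to act on genes of the respiratory chain, on both strands of 300 bases (250 before and 50 after the start site, RefSeq, GRCm38.p6). A window was given for 33 of the 41 members. Members without one include Ndufs1, Ndufa2, Ndufb9 and Ndufa4l2. A motif of YY1, whose letters are the capitals in the Ndufs7, Ndufs4, Ndufa9 and Ndufs6 windows and contain an ATG, was present in 4 members (12.1% of 33). It was present in 0.995% of all 27025 windows and in 2.5% of the 9529 windows of genes tested in the temperature experiment. The palindromic motif of NRF1, whose letters are the capitals in the Ndufa11 window, was present in 1 member (3.03%, against 1.07% of all windows and 2.35% of tested genes). The ETS motif CCGGAAG was present in 4 members (12.1%, against 9.93% and 20.2%). The letters TCAAGGTCA, bound by estrogen-related receptors, were present in 0 members (0.466% of all windows), and the DR4 motif of thyroid hormone receptors, AGGTCA repeated in the same direction after 4 bases, also in 0 (0.0148%). A match is a description of the letters and no measure of binding. The windows with the NRF1 or the YY1 letters are printed because these letters are rare in all windows. They are given 5′ to 3′ on the strand of the gene, with the matching letters in capitals. Counted from 1 at the start site, the match begins at position -60 in Ndufa11 (chr17:56717512-56717811, plus strand), and at positions 25, 36, 30 and 34 in Ndufs7 (chr10:80249199-80249498, plus strand), Ndufs4 (chr13:114388045-114388344, minus strand), Ndufa9 (chr6:126849095-126849394, minus strand) and Ndufs6 (chr13:73328433-73328732, minus strand).
Ndufa11: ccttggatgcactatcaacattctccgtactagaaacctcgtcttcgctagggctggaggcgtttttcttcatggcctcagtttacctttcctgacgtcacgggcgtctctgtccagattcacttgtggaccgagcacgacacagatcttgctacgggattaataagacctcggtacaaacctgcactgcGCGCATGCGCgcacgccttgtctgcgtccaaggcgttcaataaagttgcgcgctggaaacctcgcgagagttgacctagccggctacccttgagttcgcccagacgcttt
Ndufs7: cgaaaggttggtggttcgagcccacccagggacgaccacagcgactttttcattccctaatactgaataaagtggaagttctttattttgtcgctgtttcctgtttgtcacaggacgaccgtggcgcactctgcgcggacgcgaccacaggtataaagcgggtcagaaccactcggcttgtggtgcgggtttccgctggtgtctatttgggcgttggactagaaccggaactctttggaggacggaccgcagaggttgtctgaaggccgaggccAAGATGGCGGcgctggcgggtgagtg
Ndufs4: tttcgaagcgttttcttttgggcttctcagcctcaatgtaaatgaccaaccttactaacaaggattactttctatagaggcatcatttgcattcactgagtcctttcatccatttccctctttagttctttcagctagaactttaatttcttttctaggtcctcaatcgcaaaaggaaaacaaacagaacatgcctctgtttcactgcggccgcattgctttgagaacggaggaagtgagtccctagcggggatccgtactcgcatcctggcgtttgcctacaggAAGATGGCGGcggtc
Ndufa9: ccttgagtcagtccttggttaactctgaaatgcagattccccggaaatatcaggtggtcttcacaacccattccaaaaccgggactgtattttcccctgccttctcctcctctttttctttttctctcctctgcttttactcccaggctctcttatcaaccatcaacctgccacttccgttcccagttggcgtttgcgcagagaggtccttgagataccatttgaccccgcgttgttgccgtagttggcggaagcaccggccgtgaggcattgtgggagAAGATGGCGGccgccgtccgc
Ndufs6: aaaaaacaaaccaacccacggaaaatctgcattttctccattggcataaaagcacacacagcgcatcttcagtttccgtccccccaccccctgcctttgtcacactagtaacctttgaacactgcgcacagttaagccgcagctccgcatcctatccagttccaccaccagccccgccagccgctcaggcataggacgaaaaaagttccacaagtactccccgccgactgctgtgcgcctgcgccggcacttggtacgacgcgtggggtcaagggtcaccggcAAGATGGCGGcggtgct

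In hypothyroid WT mice given TH, 17 of 40 members (42.5%) rose at one time or more, each by less than 2-fold, where 23.8% of all genes tested did. With edgeR's quasi-likelihood test, 0 of 40 members passed an adjusted p of 0.05 in either direction after 3 h, where 4.88% of all 13002 genes tested rose and 4.29% fell. After 6 h 4 members rose (12.1% of all genes), after 12 h 9 did (13.1%) and after 24 h 15 did (17.4%), and 0 fell (10.9%, 12.8% and 15.4% of all genes). At 3 h, 5 members had an unadjusted p under 0.05, against 25.2% of all genes, and DESeq2 called 0 members, against 5.79% higher and 5.04% lower. The median log2 fold change of the members was 0.06, 0.03, 0.16 and 0.21 at the 4 times, beside medians between -0.03 and 0.01 for all genes. At 12 h, 38 of 40 members were above 0, and at 24 h 31 were. Of the 17 members, 7 were called at 12 and 24 h (17.5% of 40, against 9.42% of all genes) and 4 at 6, 12 and 24 h (10%, against 6.85%). The count at 6 h was below the share of all genes. These times share the 4 mice on PTU alone.

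The 4 members called at 6, 12 and 24 h were Ndufb10, Ndufa8, Ndufa11 and Ndufs7. Ndufb10 (chr17:24722060-24724478, minus strand, GRCm38), an accessory subunit of the distal membrane arm, had 211, 186, 242 and 232 CPM in the mice on PTU. It had 268, 258, 289 and 235 CPM in the mice of 3 h, 287, 267, 317 and 342 CPM in those of 6 h, 314, 320, 318 and 369 CPM in those of 12 h, and 400, 395, 380 and 360 CPM in those of 24 h. From 6 h on, every treated mouse stood above every mouse on PTU. The log2 fold change of Ndufb10 was 0.48 ± 0.10 (SE) at 6 h (edgeR, adjusted p = 0.00178), 0.60 ± 0.10 at 12 h (adjusted p = 0.00015) and 0.82 ± 0.10 at 24 h, a fold of 1.76 (adjusted p = 3.12e-06). Ndufa8 (chr2:36036326-36049406, minus strand), an accessory subunit of the proximal membrane arm with a CHCH domain, rose from 272, 270.0, 282 and 294 CPM on PTU to 469, 450, 377 and 417 CPM at 24 h. For Ndufa8 the log2 fold change was 0.24 ± 0.08 at 6 h (edgeR, adjusted p = 0.0386), 0.49 ± 0.08 at 12 h (adjusted p = 0.000101) and 0.61 ± 0.08 at 24 h (adjusted p = 6.11e-06).

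Ndufa11 (chr17:56717767-56722141, plus strand), an accessory subunit of the proximal arm, had 173, 149, 197 and 189 CPM on PTU and 270.0, 310.0, 281 and 261 CPM at 24 h, without overlap. By 24 h it had risen by a log2 fold change of 0.66 ± 0.10 (edgeR, adjusted p = 4.08e-05), and that of its copy Ndufa11b was 0.61 ± 0.10 (adjusted p = 6.54e-05). Ndufs7 (chr10:80249121-80256794, plus strand), a core subunit of the Q module that holds an iron-sulfur cluster next to the ubiquinone site, had 420.0, 390.0, 476 and 437 CPM on PTU and 584, 596, 582 and 511 CPM at 24 h. Its log2 fold changes were 0.33 ± 0.10 at 6 h (edgeR, adjusted p = 0.023), 0.35 ± 0.10 at 12 h (adjusted p = 0.0149) and 0.40 ± 0.10 at 24 h (adjusted p = 0.00488). The early calls rest on few mice. The count at 6 h became 1 without PTU mouse 2 or 3 or without mouse 17 of 6 h (9.76%, 9.05% and 9.16% of all genes), 2 without mouse 15 of 6 h (9.53%), and 7 without PTU mouse 4 or mouse 12 of 6 h (12.8% and 10.8%), and that at 3 h became 3 without PTU mouse 4 (6.32%).

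**Figure D2:**
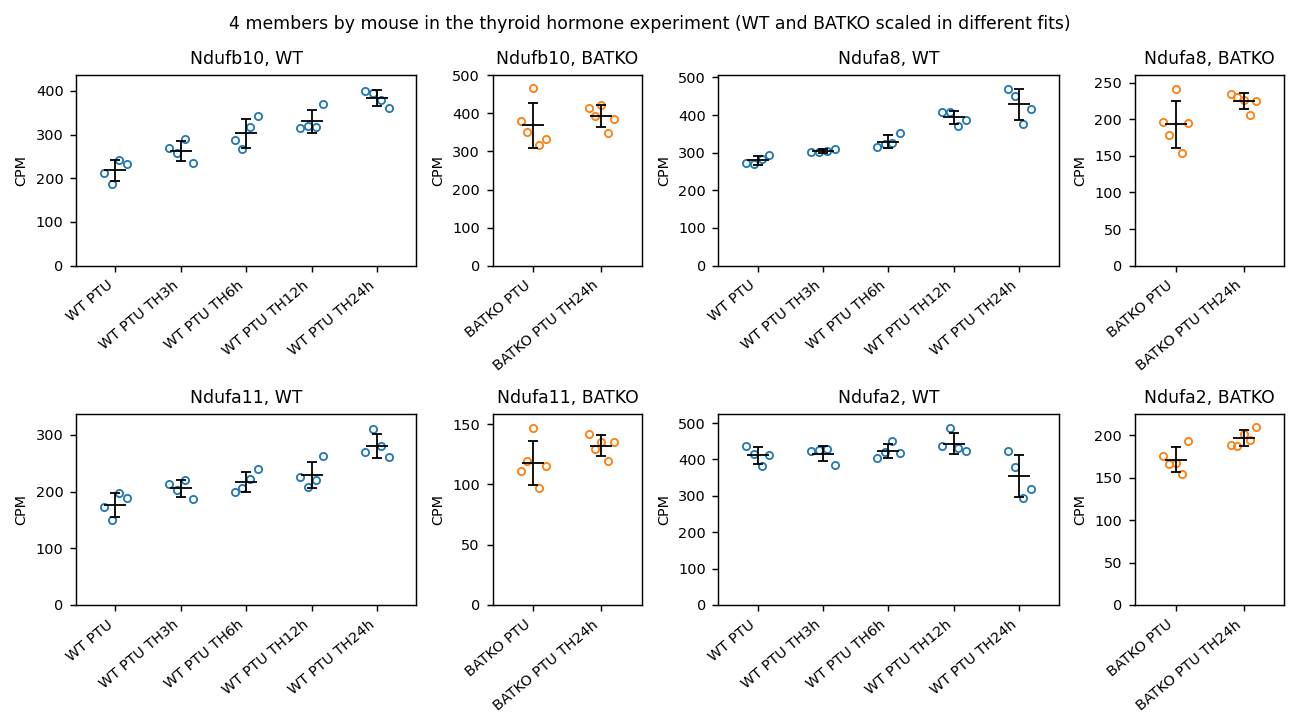
CPM by mouse of Ndufb10, Ndufa8, Ndufa11 and Ndufa2 in the TH experiment, with WT mice and BATKO mice in separate panels because they were scaled in different fits. Points are mice, bars are the mean and SD of a group, and the axes start at 0. In WT mice Ndufb10 moves from 186 to 242 CPM on PTU to 360 to 400 CPM at 24 h.

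By position in the complex, the calls at 24 h are given by module, beside the 17.4% of all genes that rose. The core subunits that rose include Ndufs8, with a log2 fold change of 0.45 ± 0.10 (edgeR, adjusted p = 0.00147), Ndufs7 and Ndufv2, a subunit of the N module, with 0.39 ± 0.10 (adjusted p = 0.00507). Ndufv1, which binds NADH and FMN, had 0.27 ± 0.12 (adjusted p = 0.104). Ndufs1 and Ndufs3 stood at -0.01 ± 0.10 and 0.00 ± 0.11. Of the accessory subunits among the members, 5 of 10 in the distal arm rose (Ndufb2, Ndufb7, Ndufb8, Ndufb9 and Ndufb10) and 3 of 9 in the proximal arm. In the N module 1 of 5 rose (Ndufs4) and in the Q module 1 of 4 (Ndufa5), both near the share of all genes. The acyl carrier Ndufab1, which also serves mitochondrial fatty acid synthesis, had 0.35 ± 0.11 (edgeR, adjusted p = 0.0208), and lost the call without PTU mouse 4 or without mouse 24 or 26 of 24 h (adjusted p up to 0.065). Ndufa4, which is assigned to complex IV, and its paralogue Ndufa4l2 had -0.28 ± 0.16 and -0.23 ± 0.18, with adjusted p of 0.186 and 0.342. Treated and PTU mice did not overlap, with every treated mouse higher, for 6, 7, 12 and 15 members at the 4 times, against 8.24%, 13.9%, 13.2% and 15.4% of all genes, and with every treated mouse lower for 0 members, against 7.73%, 12.3%, 13.0% and 13.7%. Beside these results, the summed CPM of the 10 skeletal muscle markers ran from 140.0 to 1432.8 on PTU and, by time after TH, from 7.26 to 518 (3 h), 574 to 3491.5 (6 h), 7.75 to 663 (12 h) and 580.0 to 2550.4 (24 h), and 0 of the 10 were called by edgeR at any time. Their median log2 fold change was -1.97, 1.04, -1.77 and 1.08 at the 4 times. The summed CPM of 10 brown adipocyte markers was 20233.9 to 24089.0 on PTU and, without overlap, 25381.1 to 34686.9 at 3 h, 29978.4 to 34417.0 at 6 h and 25904.7 to 40537.3 at 12 h, while its 21787.1 to 37492.8 at 24 h overlapped. Of these 10 markers 3, 4, 2 and 4 were called higher at the 4 times, and 0, 1, 2 and 4 lower. The sum of 6 lymphocyte markers was 9.53 to 20.0 on PTU and 36.2 to 89.7 at 24 h, without overlap, and the 1 of them that passed the count minimum rose at 12 and 24 h. The sum of 6 endothelial markers was 725 to 729 on PTU, 735 to 789 at 3 h, 570 to 702 at 6 h and 551 to 687 at 12 h, without overlap, and that of 4 Schwann cell markers 137 to 154 on PTU and 114 to 133 at 12 h. Macrophage and blood markers overlapped at every time. The part of these cell types in the values of the members was not tested.

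In BATKO mice given TH, 0 of 41 members passed the edgeR test at 24 h in either direction, as did 0.0% of all 14178 genes (674 at an unadjusted p under 0.05, and 0 by DESeq2). Among the members 4 had an unadjusted p under 0.05 (4.75% of all genes), and DESeq2 called 0. The median log2 fold change of the members was 0.12, beside -0.01 for all genes, and 38 of 41 were above 0. Every treated mouse stood above every control for 1 member, against 0.303% of all genes, and below every control for 0, against 0.458%. Ndufb10 had 379, 350.0, 466, 317 and 332 CPM in the BATKO mice on PTU and 413, 394, 422, 349 and 385 CPM at 24 h, with overlapping groups and a log2 fold change of 0.09 ± 0.10 (adjusted p = 0.973). Ndufs7 had 248, 244, 294, 238 and 260.0 CPM on PTU and 324, 317, 311, 274 and 303 CPM at 24 h, with 0.25 ± 0.09 (edgeR, adjusted p = 0.964).

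The difference between the BATKO and the WT response at 24 h, tested as an interaction term, passed for 4 of 41 members, which is no larger a share than that of all genes. The response was smaller in BATKO mice for 3 of 41 members (7.09% of all genes) and larger for 1 (5.15% of all genes), with a median difference of -0.08 beside -0.02 for all genes. The log2 difference was -0.73 ± 0.15 for Ndufb10 (edgeR, adjusted p = 0.00183), -0.50 ± 0.15 for Ndufa11 (adjusted p = 0.025) and -0.40 ± 0.13 for Ndufa8 (adjusted p = 0.0434). It was 0.41 ± 0.13 for Ndufa2, an accessory subunit of the N module (edgeR, adjusted p = 0.0324), whose response was -0.21 ± 0.10 in WT and 0.20 ± 0.09 in BATKO mice, neither of which was called. Ndufb10 kept its call whichever mouse was left out. Ndufa8 lost it in 13 of 18 such fits (adjusted p up to 0.0983). Ndufa11 lost it in 5 of 18, without PTU-fed WT mouse 2 or 3, WT mouse 26 of 24 h, or BATKO mouse 4 on PTU or 10 of 24 h (up to 0.0637). Ndufa2 lost it in 5 of 18, without PTU-fed WT mouse 2 or 3, WT mouse 27 or 28 of 24 h, or BATKO mouse 4 on PTU (up to 0.0605). None of the 4 is a core subunit, and the differences of the core subunits Ndufs8, with -0.38 ± 0.17 (adjusted p = 0.155), Ndufv2, with -0.31 ± 0.14 (adjusted p = 0.164), and Ndufs3, with 0.11 ± 0.15 (adjusted p = 0.7), did not pass.

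**Figure D3:**
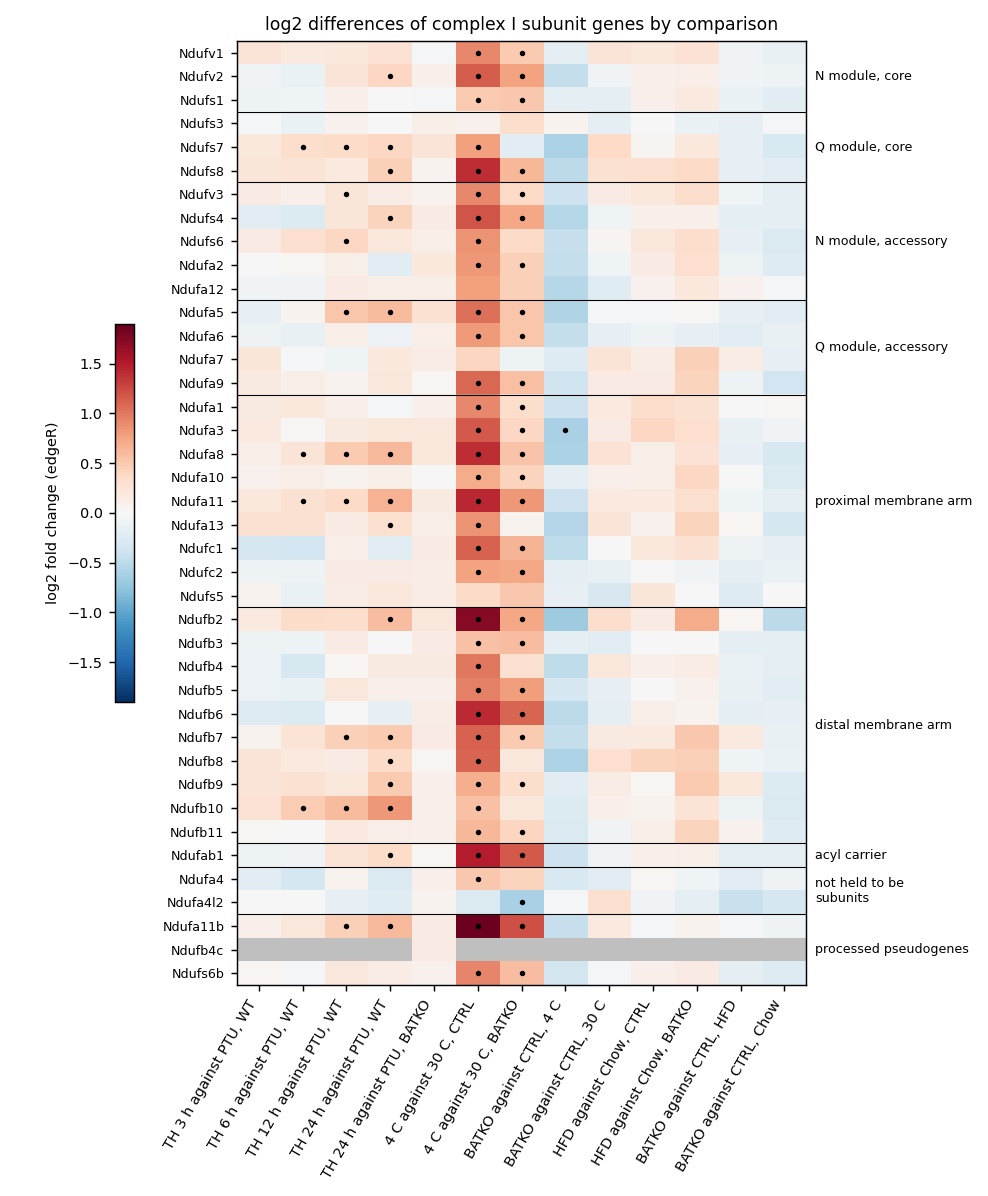
log2 fold changes (edgeR) of 40 of the 41 members, from top to bottom by module, over the comparisons between groups of the 3 experiments, from left to right. Colour gives the log2 fold change, dots mark an adjusted p under 0.05 and grey marks a gene that was not tested. The columns with the most dots are those of 4 °C against 30 °C, where all 10 members of the distal arm rose in CTRL mice.

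Cold moved nearly the whole group. In CTRL mice at 4 °C, 35 of 40 members were higher than at 30 °C and 0 lower, where 25.9% of all 13271 genes tested were higher and 23.3% lower. The median log2 fold change of the members was 0.91, beside -0.03 for all genes, and 39 of 40 were above 0. Every mouse at 4 °C stood above every mouse at 30 °C for 33 members, against 26.2% of all genes, and below for 0, against 24.4%. Without the 3 libraries that stood apart, 37 members were higher (22.7% of all genes) and the median was 0.87. The mean log2 CPM of the members was between 7.81 and 8.14 in the 4 CTRL mice at 30 °C and between 8.78 and 9.02 in the 3 at 4 °C. Markers of cell types differed along with them. Of 10 brown adipocyte markers 9 rose and 1 fell, and their summed CPM was 4715.0 to 8996.9 at 30 °C and 37763.3 to 49556.7 at 4 °C. Of 3 blood markers 2 rose, with sums of 308 to 558 and 1287.2 to 2821.5. Of 6 macrophage markers 3 fell, with sums of 101 to 185 and 74.0 to 88.8. None of these 3 sums overlapped between the temperatures, and their part in the values of the members was not tested.

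**Figure D4:**
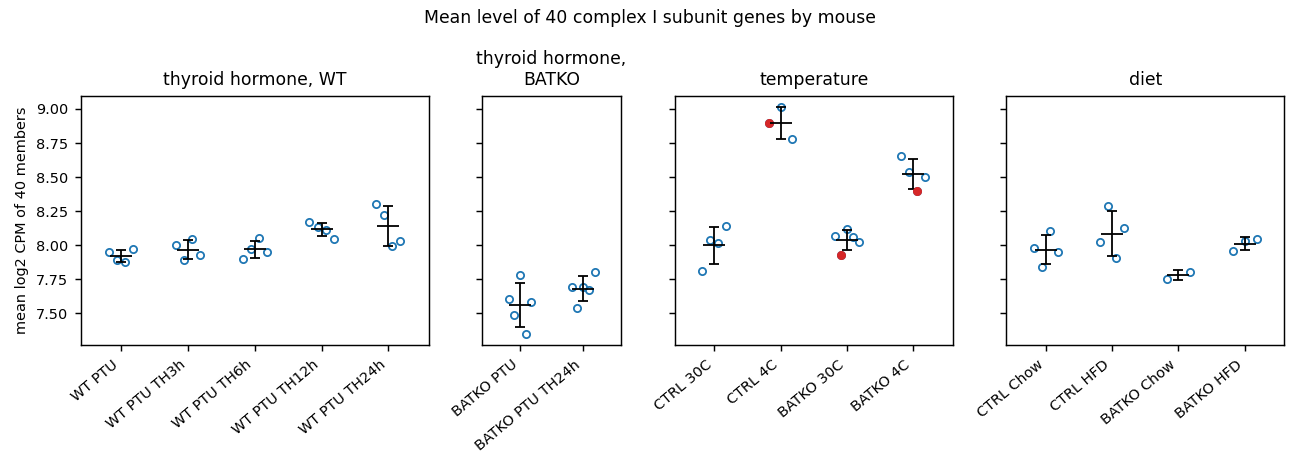
Mean log2 CPM of 40 members in each mouse, by group, in the 4 sets of mice scaled separately. Points are mice, bars are the mean and SD of a group, and red points are the 3 libraries of the temperature experiment that stood apart, with the CTRL mice at 4 °C between 8.78 and 9.02 and those at 30 °C between 7.81 and 8.14.

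All 10 members of the distal arm rose in CTRL mice, and Ndufb2 (chr6:39592574-39603382, plus strand) had the lowest p of the members. Ndufb2 had 13.3, 18.6, 15.5 and 15.6 CPM at 30 °C and 49.7, 58.9 and 47.9 CPM at 4 °C, with no overlap and a log2 fold change of 1.73 ± 0.18, a fold of 3.31 (edgeR, adjusted p = 1.31e-06). Ndufb7 (chr8:83566671-83571626, plus strand), also of the distal arm, had 251, 300, 296 and 344 CPM at 30 °C and 713, 663 and 571 CPM at 4 °C, with 1.12 ± 0.13 (edgeR, adjusted p = 2.74e-06). In the proximal arm 8 of 9 rose, the exception being Ndufs5. The CPM of Ndufs5 were 56.9, 71.9, 86.0 and 89.3 at 30 °C and 27.2, 143 and 125 at 4 °C. Of these, 27.2 is mouse 1, one of the libraries that stood apart. Ndufa8 had 317, 393, 360.0 and 405 CPM at 30 °C and 1211.4, 949 and 783 CPM at 4 °C, a log2 fold change of 1.41 ± 0.16 (edgeR, adjusted p = 2.45e-06).

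Among the core subunits, all 3 of the N module rose in CTRL mice. Ndufs8, which holds iron-sulfur clusters of the Q module, had 251, 338, 317 and 343 CPM at 30 °C and 919, 869 and 696 CPM at 4 °C, a log2 fold change of 1.41 ± 0.16 (edgeR, adjusted p = 4.06e-06). Ndufv2 rose by 1.15 ± 0.15 (adjusted p = 1.27e-05) and Ndufv1 by 0.92 ± 0.15 (adjusted p = 9.8e-05) on the log2 scale. Ndufs1 had 0.50 ± 0.19 (edgeR, adjusted p = 0.0364) and Ndufa4 0.51 ± 0.20 (adjusted p = 0.0421), and both lost the call in 5 of 7 fits that left out 1 CTRL mouse, namely mouse 2 or 5 of 4 °C or mouse 19, 20 or 21 of 30 °C (adjusted p up to 0.149 and 0.142). Ndufs3 was not called, at 0.08 ± 0.33 (edgeR, adjusted p = 0.856). Its CPM were 87.3, 99.4, 99.3 and 119 at 30 °C and 60.3, 115 and 145 at 4 °C, where 60.3 is mouse 1, one of the libraries that stood apart. Without those 3 libraries Ndufs3 had 0.36 (adjusted p = 0.118). The accessory subunits of the N and Q modules had 4 of 5 and 3 of 4 higher, Ndufab1 had 1.49 ± 0.24 (edgeR, adjusted p = 7.89e-05), and the copies Ndufa11b and Ndufs6b were higher like their parents.

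The members called in neither direction in CTRL mice include Ndufa4l2, Ndufa7, Ndufa12, Ndufs3 and Ndufs5. Ndufs5 and Ndufa12 are named after their values were seen. Ndufs5 had 12.1 to 27.2 CPM in the 3 libraries that stood apart and 56.9 to 143 CPM in the other 13 of the temperature experiment. The diet libraries, which are in another table and were scaled separately, had 15.6 to 25.5 CPM of it. In CTRL mice Ndufa12 had 76.0, 87.9, 85.3 and 99.4 CPM at 30 °C and 83.6 (mouse 1), 196 and 168 CPM at 4 °C. It had 26.1 to 83.6 CPM in the 3 libraries, 67.8 to 196 CPM in the other 13 and 12.1 to 28 CPM in the diet libraries. What sets these libraries apart is not given in the sources used here and was not tested.

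**Figure D5:**
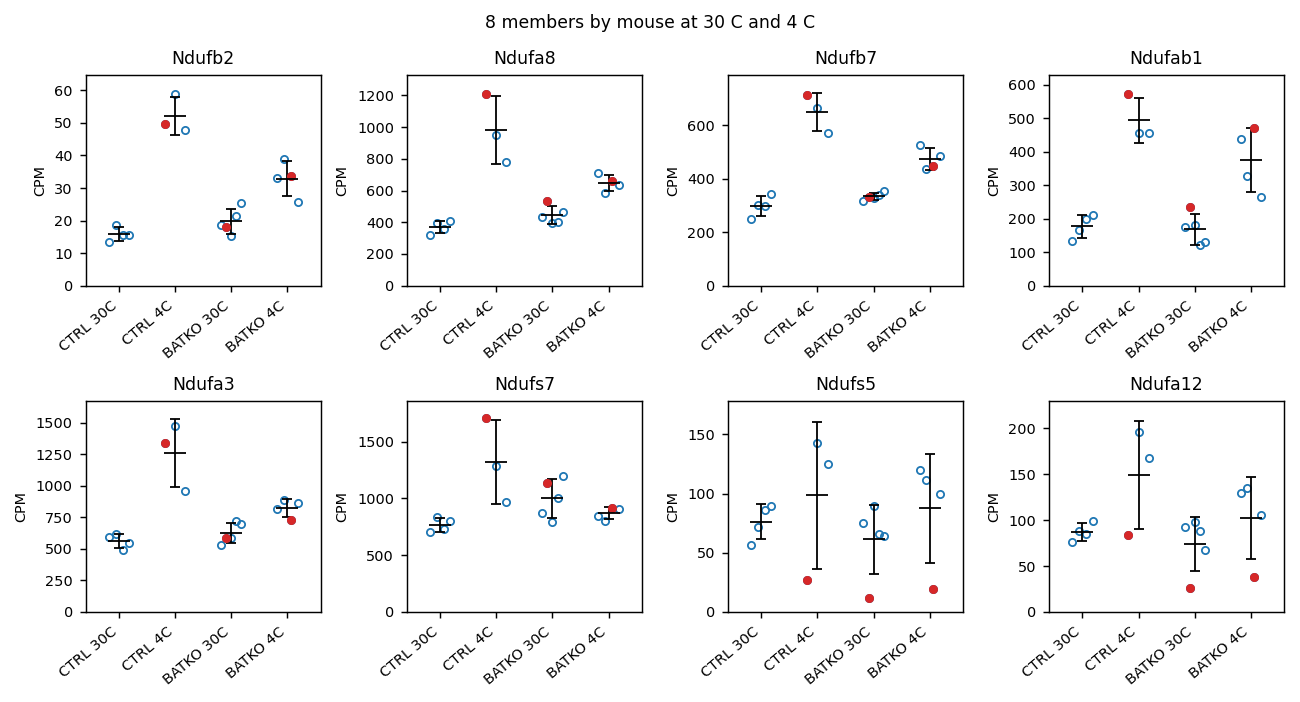
CPM by mouse of 8 members at 30 °C and 4 °C in CTRL and BATKO mice. Points are mice, bars are the mean and SD of a group, and red points are the 3 libraries that stood apart, which lie lowest for Ndufs5, with 12.1 to 27.2 CPM against 56.9 to 143 CPM in the others.

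In BATKO mice, cold raised 28 of 40 members (20.9% of all genes were higher) and lowered 1 (19.3% were lower). The median log2 fold change of the members was 0.50, beside -0.03 for all genes, and 37 were above 0. Every mouse at 4 °C stood above every mouse at 30 °C for 25 members, against 16.5% of all genes, and below for 0, against 14.7%. Without the 3 libraries that stood apart, 26 were higher (17.7% of all genes), 1 was lower (15.1%) and the median was 0.53. Of the brown adipocyte markers 8 of 10 rose, from sums of 6472.1 to 9121.7 to 22466.9 to 37550.3 CPM, and of the blood markers 2 of 3, from 283 to 849 to 1352.7 to 1851.5 CPM, both without overlap. The part of either in the values of the members was not tested. The members with the lowest p were Ndufa11, with 0.83 ± 0.14 (edgeR, adjusted p = 0.000262), Ndufv2, with 0.76 ± 0.13 (adjusted p = 0.000287), and Ndufc2, a subunit of the proximal arm, with 0.73 ± 0.13 (adjusted p = 0.000322). Ndufa11 had 150.0, 122, 174, 212 and 187 CPM at 30 °C and 304, 319, 283 and 297 CPM at 4 °C, without overlap. The member that fell was Ndufa4l2, by 0.61 ± 0.20 on the log2 scale (edgeR, adjusted p = 0.0195), from 17.3, 13.1, 19.8, 25.5 and 24.3 CPM to 11.4, 15.3, 11.0 and 14.6 CPM with overlapping groups, and the call was lost without mouse 7 or 11 of 4 °C or mouse 16 of 30 °C (adjusted p up to 0.0618). Of the core subunits, Ndufs8 (0.63 ± 0.14), Ndufv1 (0.49 ± 0.13) and Ndufv2 rose, with edgeR's adjusted p of 0.00245, 0.00721 and 0.000287. Ndufs1, with 0.51 ± 0.16 (adjusted p = 0.021), lost the call without mouse 7 of 4 °C or mouse 17 of 30 °C (up to 0.0838).

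The 28 members that rose in BATKO mice had all risen in CTRL mice, in groups of different mice, as had 81.4% of all genes that rose in BATKO mice. They are 80% of the 35 that rose in CTRL mice, against 65.7% over all genes. The log2 difference between 4 and 30 °C was larger in CTRL than in BATKO mice for 36 of 40 members, with a median difference of responses of -0.45 beside -0.01 for all genes. As an interaction term, 0 of 40 members passed the edgeR test (0.754% of all genes had a smaller and 0.324% a larger response in BATKO mice), 18 had an unadjusted p under 0.05 (18.8% of all genes), and DESeq2 called 12 with a smaller response (3.57%). Without CTRL mouse 5 of 4 °C edgeR called 13 (4.77% of all genes), without BATKO mouse 13 or 15 of 30 °C it called 4 (1.25%) or 3 (0.852%), and without the 3 libraries 0 (0.157%), with a median of -0.41. Of the core subunits described here, Ndufs7 had the largest gap. It had 705, 836, 728 and 801 CPM in CTRL mice at 30 °C and 1704.9, 1288.5 and 972 CPM at 4 °C, a log2 fold change of 0.78 ± 0.18 (edgeR, adjusted p = 0.00153). In BATKO mice it had 875, 1132.7, 792, 1007.8 and 1195.2 CPM at 30 °C and 848, 806, 918 and 908 CPM at 4 °C, a log2 fold change of -0.20 ± 0.16 (adjusted p = 0.32). The difference of the responses was -0.99 ± 0.24 (edgeR, adjusted p = 0.0526), and -0.74 (adjusted p = 0.21) without the 3 libraries.

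Between genotypes at 4 °C, 39 of 40 members were lower in BATKO than in CTRL mice by their fold change, with a median of -0.40 beside -0.02 for all genes, but 1 passed the edgeR test as lower (1.45% of all genes) and 0 as higher (0.942%), and 23 had an unadjusted p under 0.05 (17.1%). DESeq2 called 9 as lower (3.19%). Every BATKO mouse stood below every CTRL mouse for 17 members, against 7.9% of all genes, and above for 0, against 5.43%. The member called was Ndufa3, an accessory subunit of the proximal arm, with 1342.9, 1475.6 and 960.0 CPM in CTRL and 814, 888, 730.0 and 861 CPM in BATKO mice, a log2 difference of -0.61 ± 0.16 (edgeR, adjusted p = 0.0485). Its call held only without CTRL mouse 5 and was lost in the other 6 of 7 fits that left out 1 mouse (adjusted p up to 0.231). Without CTRL mouse 5, 11 members were lower (3.27% of all genes). Without the 3 libraries that stood apart, 0 were (0.495%), with a median of -0.34 and Ndufa3 at -0.51 (adjusted p = 0.284). At 30 °C, 0 of 40 members passed in either direction (0.00754% of all genes were higher and 0.0% lower), 1 had an unadjusted p under 0.05 (8.36%), DESeq2 called 0, and the median was 0.09 beside 0.01. There 1 member had every BATKO mouse above every CTRL mouse (1.79% of all genes) and 0 had every BATKO mouse below (1.21%). The sums of the brown adipocyte markers at 4 °C given above did not overlap between the genotypes, and 2 of the 10 were called lower in BATKO mice. The summed muscle markers were 1.58 to 9934.8 and 293 to 1293.4 in CTRL mice at 30 and 4 °C, and 1.69 to 17093.2 and 12.2 to 3402.5 in BATKO mice. The part of either in the values of the members was not tested.

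Short high-fat feeding left the members without a call. In CTRL mice, 0 of 40 passed the edgeR test (1.79% of all 12933 genes were higher and 2.12% lower), 2 had an unadjusted p under 0.05 (21.5%), DESeq2 called 1 as higher (3.45%), which was Ndufb8, and the median log2 fold change was 0.10 beside -0.00 for all genes. Groups did not overlap for 0 members, against 4.82% of all genes with every mouse on HFD higher and 6.1% with every one lower. In BATKO mice, 0 passed (0.0309% of all genes were higher and 0.0387% lower), 7 had an unadjusted p under 0.05 (15.5%), DESeq2 called 1 as higher (0.951%), which was Ndufb9, and the median was 0.26 beside 0.03. Every BATKO mouse on HFD stood above both on chow for 16 members, against 19.6% of all genes, and below both for 0, against 17.0%. Ndufb8 and Ndufb9 are named here after their values were seen. Between BATKO and CTRL mice, 0 members and 0.0% of all genes passed in either direction, on HFD (0 members and 5.43% of all genes at an unadjusted p under 0.05, median -0.11) or on chow (2 members and 8.13%, median -0.19), and DESeq2 called 0 members. Every BATKO mouse stood below every CTRL mouse for 1 member on HFD (2.66% of all genes) and 7 on chow (9.39%), and above for 0 (3.39% and 8.54%). The sum of the 6 macrophage markers was 93.9 to 103 CPM in CTRL and 223 to 285 CPM in BATKO mice on chow, and 123 to 354 and 91.5 to 201 CPM on HFD, and the sum of the brown adipocyte markers in BATKO mice was 9214.9 to 11530.7 CPM on chow and 13396.1 to 18091.1 CPM on HFD. Their part in the values of the members was not tested. The difference of the HFD responses had a median of 0.08, with 0 called by edgeR (0.0% of all genes) or DESeq2 and 1 at an unadjusted p under 0.05 (5.94%). Mice of one group were not alike, and the same mice stood apart for several members. CTRL mice 1 and 2 on chow lay below mice 3 and 4, CTRL mice 10 and 11 on HFD below mice 7 and 9, and BATKO mouse 5 on chow below mouse 6 for 8 of 40 members (Ndufa2, Ndufa10, Ndufa11b, Ndufa13, Ndufb7, Ndufb11, Ndufs7 and Ndufv1) and 4.75% of all genes, and all of them above for 2 members (Ndufb2 and Ndufb4) and 3.36% of all genes. These mice were picked after the values of Ndufb7 were seen, so that its place among the 8 members was fixed by the choice. What sets these mice apart is not given in the sources used here, and their part in the diet comparisons was not tested. Ndufb7 had 109, 102, 402 and 321 CPM in CTRL mice 1 to 4 on chow and 352, 412, 140.0 and 152 CPM in CTRL mice 7, 9, 10 and 11 on HFD. In BATKO mice it had 103 and 319 CPM on chow and 268, 307 and 328 CPM on HFD. The groups overlapped, and its SE of 0.47 in the CTRL comparison was larger than the log2 fold change of 0.18.

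Genes that build or accompany the complex were counted in the same comparisons, beside the share of all genes called. Of 19 assembly factors tested, 2, 7, 11 and 9 rose in WT mice 3, 6, 12 and 24 h after TH, where 4.88%, 12.1%, 13.1% and 17.4% of all genes rose, and 2 fell after 24 h (15.4% of all genes). Dmac2, which takes part in building the distal arm, had log2 fold changes of 0.62 ± 0.14 at 3 h (edgeR, adjusted p = 0.00531) and 1.23 ± 0.13 at 24 h (adjusted p = 6.55e-07), and its response differed in BATKO mice by -1.22 ± 0.21 (adjusted p = 0.000324). Tmem186 had 0.65 ± 0.12 at 3 h (edgeR, adjusted p = 0.00114) and 0.96 ± 0.12 at 6 h (adjusted p = 5.85e-06). Cold raised 15 of 19 in CTRL (25.9% of all genes) and 10 of 19 in BATKO mice (20.9%). The lowest p, which need not be the largest fold change, was that of Tmem186 in CTRL mice, with 1.56 ± 0.12 (edgeR, adjusted p = 9.1e-08). In BATKO mice it was that of Ndufaf4, with 1.92 ± 0.18 (adjusted p = 1.43e-06). Of 5 mt-Nd genes considered here, scaled like the members, 0 rose at any time after TH. Among them, mt-Nd1 was lower at 6 h (-0.45 ± 0.16, edgeR, adjusted p = 0.0458) and mt-Nd5 at 24 h (-0.49 ± 0.16, adjusted p = 0.0222). These counts do not cover every mt-Nd gene of the mitochondrial genome. In the cold 3 of the 5 considered rose in each genotype (25.9% and 20.9% of all genes), mt-Nd1 by 1.37 ± 0.24 in CTRL (edgeR, adjusted p = 0.000173) and 0.89 ± 0.21 in BATKO mice (adjusted p = 0.00281). Of 46 nuclear subunit genes of complexes II to V, 0, 6, 7 and 15 rose at 3, 6, 12 and 24 h, beside 0, 4, 9 and 15 of the 40 members and 4.88%, 12.1%, 13.1% and 17.4% of all genes. The counts at 6 and 12 h were thus close to the share of all genes. In the cold 32 rose and 2 fell in CTRL mice (25.9% and 23.3% of all genes), and 21 rose and 1 fell in BATKO mice (20.9% and 19.3%).

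Of 12 regulators of respiratory genes, 4, 7, 6 and 6 rose at 3, 6, 12 and 24 h after TH, where 4.88%, 12.1%, 13.1% and 17.4% of all genes did. Esrrg, an estrogen-related receptor, had 1.43 ± 0.13 at 6 h (edgeR, adjusted p = 2.03e-07) and 1.16 ± 0.13 at 24 h (adjusted p = 1.28e-06), and its response at 24 h differed by -1.38 ± 0.25 in BATKO mice (adjusted p = 0.000554). Ppargc1a, a coactivator of mitochondrial genes, had 1.41 ± 0.39 at 3 h (edgeR, adjusted p = 0.0265) and 1.87 ± 0.40 at 6 h (adjusted p = 0.00185). In the cold 6 rose and 1 fell in CTRL mice (25.9% and 23.3% of all genes), and 5 rose and 1 fell in BATKO mice (20.9% and 19.3%). Esrra, which acts with Ppargc1a, had 1.95 ± 0.21 in CTRL (edgeR, adjusted p = 1.82e-06) and 0.83 ± 0.18 in BATKO mice (adjusted p = 0.00183). At 4 °C both Ppargc1a, with -1.66 ± 0.34 (edgeR, adjusted p = 0.0198), and Esrra, with -0.83 ± 0.20 (adjusted p = 0.0425), were lower in BATKO than in CTRL mice. Of all genes 1.45% were lower there. Whether these 2 calls hold with a mouse or the 3 libraries that stood apart left out is not given here.

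Within groups, most pairs of members had a positive correlation, which was highest in the BATKO libraries of the TH experiment, which stood apart. The correlation of deviations from the group means, over all 780 pairs of 40 members, had a median of 0.25 in 20 WT and 0.63 in 10 BATKO mice of the TH experiment, 0.19 in the 16 mice of the temperature experiment and 0.24 in the 13 mice of the diet experiment. In the same order, 73.6%, 92.6%, 63.2% and 66.5% of the pairs were above 0. These are descriptions, since all members of a mouse share a library and its scaling, and other genes were not looked at. The member least like the others was Ndufa7 in the WT mice, Ndufc2 in the BATKO mice, Ndufs3 in the temperature experiment and Ndufa4l2 in the diet experiment.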

How the data were processed

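RNA had been extracted with Trizol and sequenced from total RNA libraries. The authors aligned reads to GRCm38 with Bowtie (Bowtie2 2.3.2.2 in the submitters' processing notes), kept reads with an alignment quality of at least 10, assigned them to genes with htseq-count and deposited raw counts in 3 tables, 1 for each experiment. The gene annotation and the strand setting are not given in the sources used here. All columns were matched to mice by the labels, and no pair of libraries of 1 group was a copy.

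Counts were fitted with edgeR (version 4.0.16, limma 3.58.1, R 4.3.3), with TMM factors from genes outside the mitochondrial genome, and a minimum of 10 for the mean normalized count of a gene. Calls are those of the quasi-likelihood test with p-values adjusted over all genes tested by Benjamini and Hochberg's method, at a threshold of 0.05. WT mice were fitted together over the time course, the 30 mice of the TH experiment for the BATKO response and its interaction, and all mice of the temperature and of the diet experiment for theirs. CPM come from the same scaling, with a pseudocount of 0.5 CPM in mean log2 CPM. Standard errors were derived from the F statistic. Scripts were tested on simulated data. Tests were made within a table only.

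The members and the gene lists were chosen with earlier results of these data known. Named members are the core subunits (1 is not reported here), Ndufab1, Ndufa4, Ndufa4l2, those with the highest and lowest level per length and up to 3 called members in each direction per comparison, by lowest p-value. Assembly factors and regulators are named by lowest p-value, at most 3 in each direction. Other genes named were chosen after their values were seen.

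Alternatives were DESeq2 (version 1.42.0), its size factors (RLE), mitochondrial genes in the scaling, no filter on low counts, a mean count above 50, only the groups compared, all 30 mice, another length, and each mouse left out in turn. Leaving 10 pseudogenes out of the scaling of the TH experiment, and leaving out the 3 libraries that stood apart, were chosen after seeing the data.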

Additional observations from a re-analysis of the deposited data

Results flagged for a closer look

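In groups of 4 to 10 mice, the CPM of 20 members were searched for a mouse far from the others (Dixon's ratio of its gap to the range of the group, above the 95% value). Of 240 such searches 10 found one, where chance finds about 1 in 20, or 12. In the TH experiment, these were Ndufb10 in mouse 23 of 12 h (369 CPM, the others 314 to 320.0, ratio 0.9), Ndufs7 in mouse 28 of 24 h (511 CPM, the others 582 to 596, ratio 0.841), Ndufa2 in mouse 11 of 3 h (385 CPM, the others 422 to 429, ratio 0.845) and Ndufa12 in mouse 9 of 3 h (100 CPM, the others 85.8 to 87.5, ratio 0.879), all WT. In the temperature experiment, they were Ndufa11b in BATKO mouse 11 at 4 °C (388 CPM, the others 206 to 234, ratio 0.848) and Ndufa11b in CTRL mouse 19 at 30 °C (64.5 CPM, the others 106 to 112, ratio 0.885). In the diet experiment, they were Ndufs3 in CTRL mouse 2 on chow (83.9 CPM, the others 72.4 to 74.0, ratio 0.869), Ndufc2 in CTRL mouse 1 on chow (583 CPM, the others 466 to 484, ratio 0.843), Ndufc2 in CTRL mouse 11 on HFD (552 CPM, the others 481 to 491, ratio 0.864) and Ndufb10 in CTRL mouse 9 on HFD (370.0 CPM, the others 316 to 324, ratio 0.855). BATKO mouse 11 at 4 °C is one of the 3 libraries that stood apart.

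The response to TH at 24 h differed between BATKO and WT mice, by the interaction term of edgeR, for Ndufa2 (log2 difference 0.41), Ndufa8 (-0.40), Ndufa11 (-0.50) and Ndufb10 (-0.73). These 4 of 41 members are no larger a share than that of all genes, of which 5.15% had a larger and 7.09% a smaller response. The 2 genotypes also differ in the libraries described above, and genotype and library cannot be told apart in this experiment.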

How the results depend on the processing

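No called value changed its sign under any alternative run. Members called higher at 6 h went from 4 (12.1% of all genes) to 7 with DESeq2 (12.6%) and 1 without the filter on low counts (5.49%). For the TH interaction, members with a larger response in BATKO mice went from 1 (5.15%) to 0 without the filter (1.91%) and 0 with only the groups compared (3.82%), and those with a smaller response from 3 (7.09%) to 1 (2.73%) and 1 (5.27%). Members lower in BATKO mice at 4 °C went from 1 (1.45%) to 9 with DESeq2 (3.19%), 2 with RLE factors (1.54%), 3 with a mean count above 50 (2.17%), and 0 with mitochondrial genes in the scaling (1.2%), without the filter (0.715%), with only the groups compared (0.357%) or without the 3 libraries (0.495%). Members with a smaller cold response in BATKO mice went from 0 (0.754%) to 12 with DESeq2 (3.57%), 3 with RLE factors (0.95%) and 3 with a mean count above 50 (1.5%). Members higher on HFD went from 0 (1.79%) to 1 with DESeq2 (3.45%) and 1 without the filter (2.41%) in CTRL mice, and from 0 (0.0309%) to 1 with DESeq2 (0.951%) in BATKO mice. The causes were not tested.

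With each mouse left out in turn, members called higher ranged from 0 to 3 at 3 h (3.03 to 6.32% of all genes), 1 to 7 at 6 h (9.05 to 12.8%), 6 to 11 at 12 h (11.1 to 13.3%) and 11 to 16 at 24 h (13.6 to 17.5%), and 2 were called lower at 24 h without mouse 24 (15.9%), from 0 otherwise. For the TH interaction, 0 to 2 had a larger (3.23 to 6.63%) and 1 to 5 a smaller (5.01 to 8.3%) response in BATKO mice (5 without BATKO mouse 11 on PTU). In the cold, 32 to 35 were higher in CTRL mice (22.4 to 25.4%), and 21 to 28 higher (17.6 to 19.9%) and 0 to 1 lower (15.1 to 19.1%) in BATKO mice. Those lower in BATKO mice at 4 °C ranged from 0 to 11 (0.323 to 3.27%), those with a smaller cold response from 0 to 13 (0.0451 to 4.77%), and those higher on HFD in CTRL mice from 0 to 1 (0.503 to 2.54%, and 1 without CTRL mouse 7 on HFD). The median of the members ranged from 0.01 to 0.09 at 6 h, 0.16 to 0.23 at 12 h, 0.40 to 0.53 in cold BATKO mice and 0.18 to 0.30 in BATKO mice on HFD. Of 37 single values called, 25 kept their call in every alternative run and 4 lost it only when a mouse was left out, while 9 of 125 values that were not called passed in some alternative. For Ndufb2, the level per length was 4.28, 3.6 and 5.64 CPM per kb by its longest transcript, in WT mice on PTU, CTRL mice at 30 °C and CTRL mice on chow.

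Replicate numbers recur between WT and BATKO mice of the TH experiment, which are different mice, and the 9 pairs of the same number had correlations of their deviations from -0.38 to 0.11, so that the numbers do not pair the mice. No paired analysis was possible because the 4 numbers of the WT mice of 24 h occur in 0 other groups, so that their response cannot be estimated with a replicate block, and groups share fewer than 2 numbers in the other comparisons. The 2 BATKO mice on chow limit the diet comparisons, and the libraries that stood apart limit those of genotype.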
